A study of Sus scrofa with 9 samples.

Results

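The interleukin-1 (IL-1) family was followed in the left ventricular apex of 9 porcine hearts donated after circulatory death (DCD) and reperfused on a bench-top circuit. Its members were the rows of the deposited expression table that carried the name of 1 of 9 genes: the ligands IL1A, IL1B, IL18 and IL33, the receptor chains IL1R1, IL1RAP and IL1RL1, the decoy receptor IL1R2 and the receptor antagonist IL1RN. Of these, 7 were listed among the 25149 genes of the table, 6 passed the filter on low values that left 11782 genes for testing, and 1 (IL1RL1) was listed but did not pass. IL1B and IL1RN had no row of that name and were not analysed here.

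IL-1 family cytokines are early messengers of tissue injury. IL-1 alpha is held in the cytosol and nucleus of many cells and acts when it is released from damaged cells, whereas IL-18 is stored as a precursor that caspase-1 cleaves, and IL-33 is kept in the nucleus of stromal and endothelial cells and acts as an alarmin. IL-1 binds IL1R1, which recruits the shared accessory chain IL1RAP and signals through MYD88 and the IRAK kinases to NF-kB, while IL1R2 binds the same ligands without signaling. In the heart, IL-1 signaling is known from myocardial infarction and from the inflammation that follows ischemia and reperfusion.

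All hearts came from female American Yorkshire pigs of 4 to 6 months, and all were exposed to 15 min of warm ischemia after circulatory arrest. Group 1 (NRP + HOPE 24 h; pigs 27, 28 and 30) received 60 min of normothermic regional perfusion (NRP), the in situ reperfusion of the organs with warm oxygenated blood before procurement, and then 24 h of hypothermic oxygenated perfusion (HOPE) at 8 °C. Group 2 (NRP + SCS 2 h; pigs 24, 25 and 29) received the same NRP followed by 2 h of static cold storage (SCS) at 4 °C. Group 3 (no NRP + HOPE 2 h; pigs 31, 33 and 34) received 0 min of NRP and was stored by HOPE for 2 h. Every heart was then reperfused for 2 h by normothermic machine perfusion (NMP) in a circuit primed with porcine donor blood, and 1 biopsy per heart was flash frozen at the end of NMP, so that no heart was sampled before storage or before reperfusion. Storage method, duration and temperature changed together between Groups 1 and 2, NRP, the storage method and its temperature changed together between Groups 3 and 2, and NRP and storage time changed together between Groups 1 and 3, so that the parts of each pair cannot be told apart. The 3 comparisons share their groups and are therefore not independent of each other.

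Values were transcripts per 1000000 (TPM), in which a gene's reads are scaled for its length and for the sum over the library, so that levels can be set side by side between genes as well as between hearts. The number of reads behind a value was not given, and the depth of the libraries is unknown. Between 13963 and 14771 genes were above 0 in a heart, and the mitochondrially encoded genes took 38.2% (pig 30) to 55.3% (pig 27) of all TPM. The labels call the cells cardiomyocytes, but the biopsies were whole myocardium: the summed cardiomyocyte markers (5 of 7 listed) were at 17874.5 to 32089 TPM, beside 160 to 375 TPM for endothelial markers (4 of 5 listed) and 62.5 to 217 TPM for macrophage markers (5 of 8 listed). In such bulk tissue, fewer cells of a type and less RNA per cell cannot be told apart.

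By their means over the 9 hearts, IL1R1 was the most abundant member at 78.7 TPM, above 93.0% of the tested genes. The other members were low, with IL33 at 4.59 TPM, IL1A at 4.51 TPM, IL1RAP at 4.08 TPM, IL1R2 at 2.18 TPM and IL18 at 1.76 TPM. The order within the low members was not a firm one, since their ranges over the hearts overlapped. The spread had another order than the level. IL1A varied more between hearts than 95.7% of the tested genes and its highest heart was 12.3 times its lowest, whereas IL1R1, with a highest heart 2.82 times the lowest, varied more than 58.4% of the genes.

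**Figure D1:**
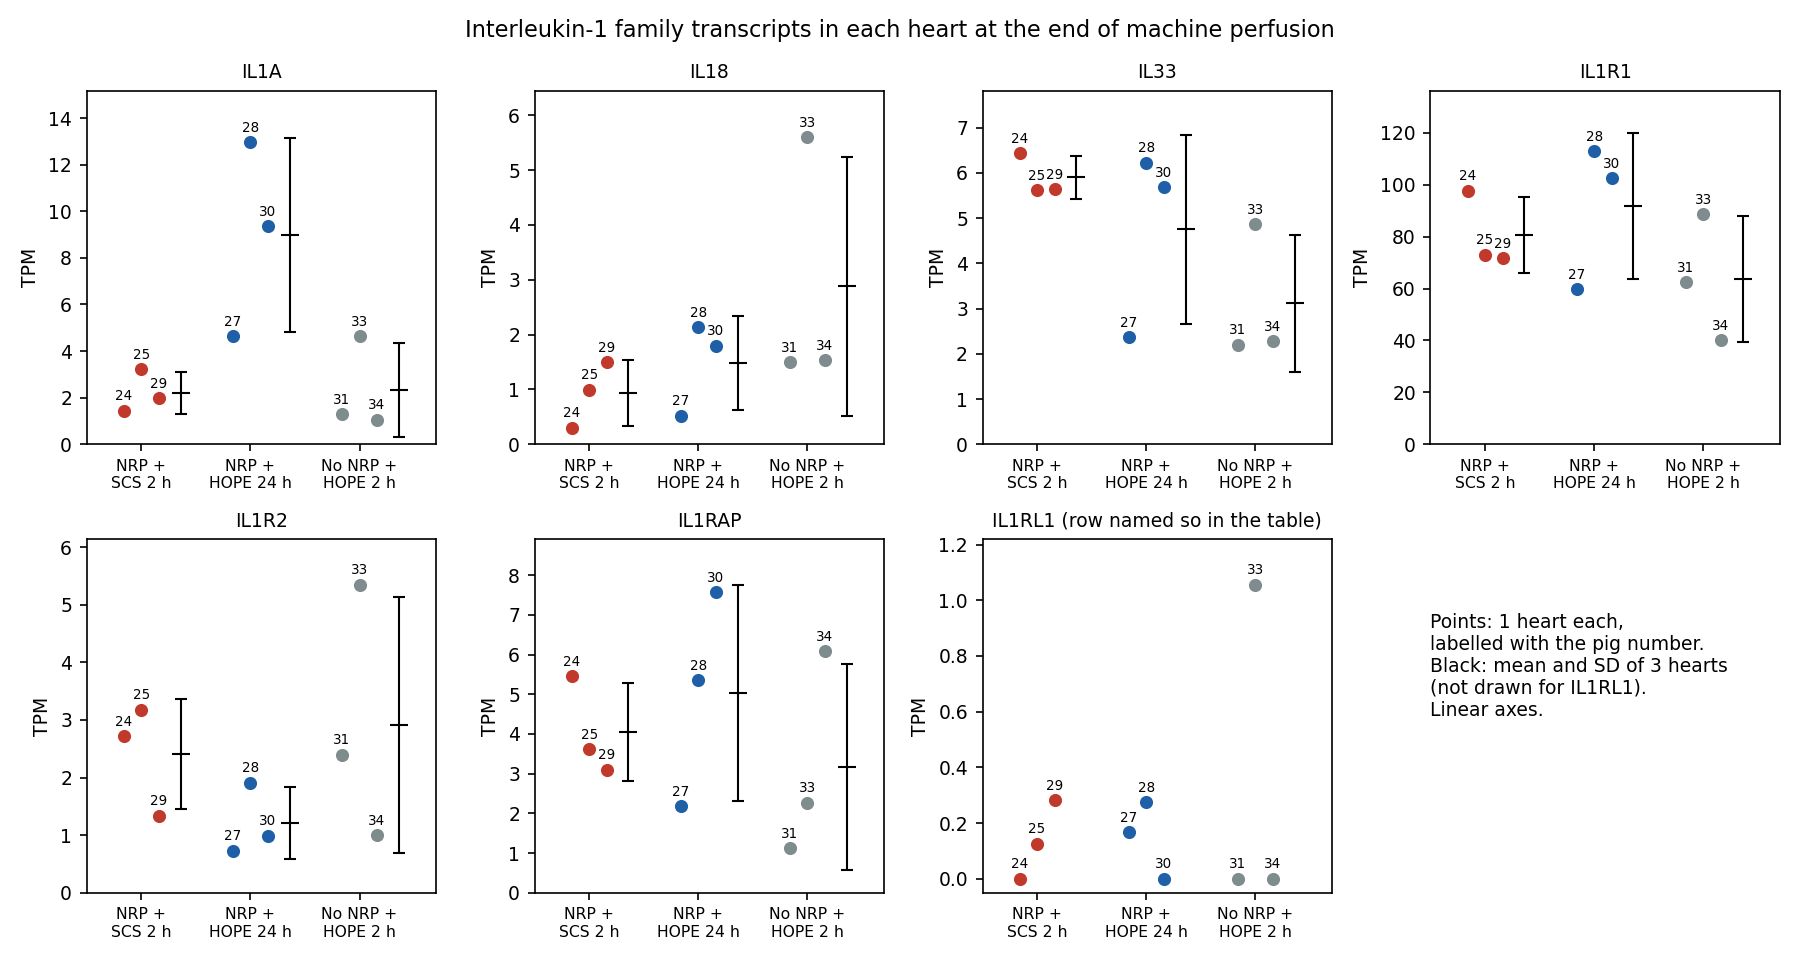
TPM of the 7 listed IL-1 family members in each heart, with 1 panel per gene, linear axes of different ranges, points for single hearts (3 per group) and, except for IL1RL1, the group mean and SD. IL1A sits at 4.65 to 13.0 TPM in the 24 h HOPE hearts and at 1.06 to 4.63 TPM in the other hearts, whereas the points of IL1R1 and IL1RAP overlap between all groups.

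IL1A (ENSSSCG00000008090), the gene of IL-1 alpha, was the member that differed most by storage group. It was at 4.65, 13.0 and 9.35 TPM in the 24 h HOPE hearts (mean 8.99 ± 4.17, SD, n = 3), at 1.44, 3.22 and 1.97 TPM in the 2 h SCS hearts (2.21 ± 0.913) and at 1.29, 4.63 and 1.06 TPM in the no-NRP hearts (2.32 ± 2.00). Every 24 h HOPE heart was above every other heart, although the lowest of them, pig 27, exceeded pig 33 of the no-NRP group by only a small margin. On the log2(TPM + 1) scale, which understates the change of low genes, IL1A was 1.58 ± 0.45 (SE) higher after 24 h HOPE than after 2 h SCS (95% interval 0.62 to 2.54), a 2.99-fold ratio of TPM + 1, and 1.65 ± 0.45 higher than in the no-NRP hearts (0.69 to 2.61), a 3.14-fold ratio. Neither difference passed the correction over all tested genes (limma, adjusted p = 0.479 and adjusted p = 0.375). IL1A ranked 83 and 78 of 11782 genes by its p-value in these comparisons, and the exact two-sided permutation test gave p = 0.1 in both, the smallest value that 3 hearts against 3 allow. The 2 groups stored for 2 h differed in IL1A by -0.07 (no NRP + HOPE against SCS, 95% interval -1.03 to 0.89, adjusted p = 0.989), with an interval about as wide as those above.

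IL18 (ENSSSCG00000015037), the gene of IL-18, whose precursor caspase-1 cleaves, had its highest value in a heart without NRP. Its level was 1.5, 5.60 and 1.53 TPM in the no-NRP hearts (2.88 ± 2.36), 0.304, 0.998 and 1.5 TPM in the 2 h SCS hearts (0.932 ± 0.598) and 0.521, 2.13 and 1.80 TPM after 24 h HOPE (1.48 ± 0.851). The no-NRP and SCS hearts did not overlap, but the lowest no-NRP heart and the highest SCS heart were both at 1.5 TPM after rounding. The difference of 0.90 ± 0.45 on the log2(TPM + 1) scale (-0.07 to 1.86) did not pass (adjusted p = 0.725), and it was 0.43 without pig 33.

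IL33 (ENSSSCG00000005203), the nuclear alarmin, was lower in the no-NRP hearts. It stood at 2.20, 4.87 and 2.28 TPM there (3.12 ± 1.52), against 6.44, 5.62 and 5.64 TPM in the 2 h SCS hearts (5.90 ± 0.468), which were close to each other and all above the no-NRP hearts. The 24 h HOPE hearts, at 2.36, 6.22 and 5.69 TPM (4.76 ± 2.09), spanned both groups. Between the no-NRP and SCS hearts the difference was -0.80 ± 0.37 (-1.60 to -0.01), which did not pass over all genes (adjusted p = 0.689), and it was -0.48 with array weights, under which limma weights each heart by its spread. IL33 is expressed by endothelial and stromal cells, and the summed endothelial markers were at 337 to 370 TPM in the SCS hearts, 160 to 348 TPM in the no-NRP hearts and 173 to 375 TPM after 24 h HOPE. The summed fibroblast markers (4 of 5 listed) had the other order, at 390 to 507 TPM in the SCS hearts and 526 to 655 TPM in the no-NRP hearts with no overlap, and at 423 to 560 TPM after 24 h HOPE. The part of these cells in the IL33 result was not tested.

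The ligand IL-1 beta could not be read. The row closest to it by name was IL1B2 (ENSSSCG00000008087), for which RefSeq gives IL1B as a synonym, and it was listed at 0 in 8 of the 9 hearts and at 0.300 TPM in pig 27. Rows were matched by name only, and 12006 of the 25149 rows carry no name. A row of IL1B or IL1RN among those would not have been found. IL1B2 and IL1B are related genes, and a counter that keeps uniquely placed reads can lose reads that fit both. Their sequences were not compared here, and no level of IL-1 beta follows from this row.

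IL1R1 (ENSSSCG00000008162), the signaling receptor, was at 59.7, 113 and 103 TPM after 24 h HOPE (91.7 ± 28.2), at 97.7, 73.0 and 71.6 TPM after 2 h SCS (80.8 ± 14.7) and at 62.5, 88.5 and 40.0 TPM without NRP (63.7 ± 24.3). All 3 groups overlapped. The log2 differences were 0.14 (24 h HOPE against SCS, -0.58 to 0.87), -0.40 (no NRP against SCS, -1.12 to 0.33) and 0.54 (24 h HOPE against no NRP, -0.19 to 1.27), with adjusted p = 0.993, adjusted p = 0.879 and adjusted p = 0.929. The second was -0.10 without pig 34 and -0.67 without pig 33, and the third was 0.25 without pig 34 and 0.82 without pig 27.

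IL1RAP (ENSSSCG00000021206), the accessory chain shared by the receptors for IL-1 and IL-33, overlapped between the groups as well. Its level was 2.18, 5.35 and 7.57 TPM after 24 h HOPE (5.03 ± 2.71), 5.46, 3.61 and 3.10 TPM after SCS (4.05 ± 1.24) and 1.12, 2.27 and 6.08 TPM without NRP (3.16 ± 2.60). The log2 differences were 0.17 (-0.83 to 1.17), -0.44 (-1.44 to 0.56) and 0.60 (-0.40 to 1.61) in the same order of comparisons, with adjusted p = 0.993, adjusted p = 0.906 and adjusted p = 0.946. Single hearts moved these values, since the second was -0.04 without pig 31 and -0.91 without pig 34, and the third was 0.21 and 1.08 without the same hearts.

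IL1R2 (ENSSSCG00000028331), the decoy receptor, had its lowest group mean after 24 h HOPE. The values were 0.732, 1.91 and 0.991 TPM in those hearts (1.21 ± 0.618), 2.72, 3.17 and 1.34 TPM after SCS (2.41 ± 0.956) and 2.40, 5.34 and 0.998 TPM without NRP (2.91 ± 2.22). The groups overlapped, since pig 28 lay above pig 29 and pig 34. The differences were -0.62 (-1.54 to 0.31) against SCS and -0.70 (-1.62 to 0.22) against no NRP, with adjusted p = 0.993 and adjusted p = 0.922, and the latter was -0.27 without pig 33 and -1.11 without pig 34. Between the no-NRP and SCS hearts it was 0.08 (-0.84 to 1.01, adjusted p = 0.987).

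IL1RL1, the IL-33 receptor, stayed below the filter. Its row (ENSSSCG00000008159) was at 0, 0.126 and 0.282 TPM after SCS, at 0.168, 0.274 and 0 TPM after 24 h HOPE and at 0, 1.06 and 0 TPM without NRP. It reached 1 TPM in 1 heart and was listed at 0 in 4, and no fold was computed. The identity of the row is itself uncertain, because another name table gives this identifier to IL18R1, the IL-18 receptor. In RefSeq the receptor genes IL18RAP, IL18R1, IL1RL1, IL1RL2, IL1R1 and IL1R2 lie next to each other, and 5 of these 6 names occur in the deposited table.

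**Figure D2:**
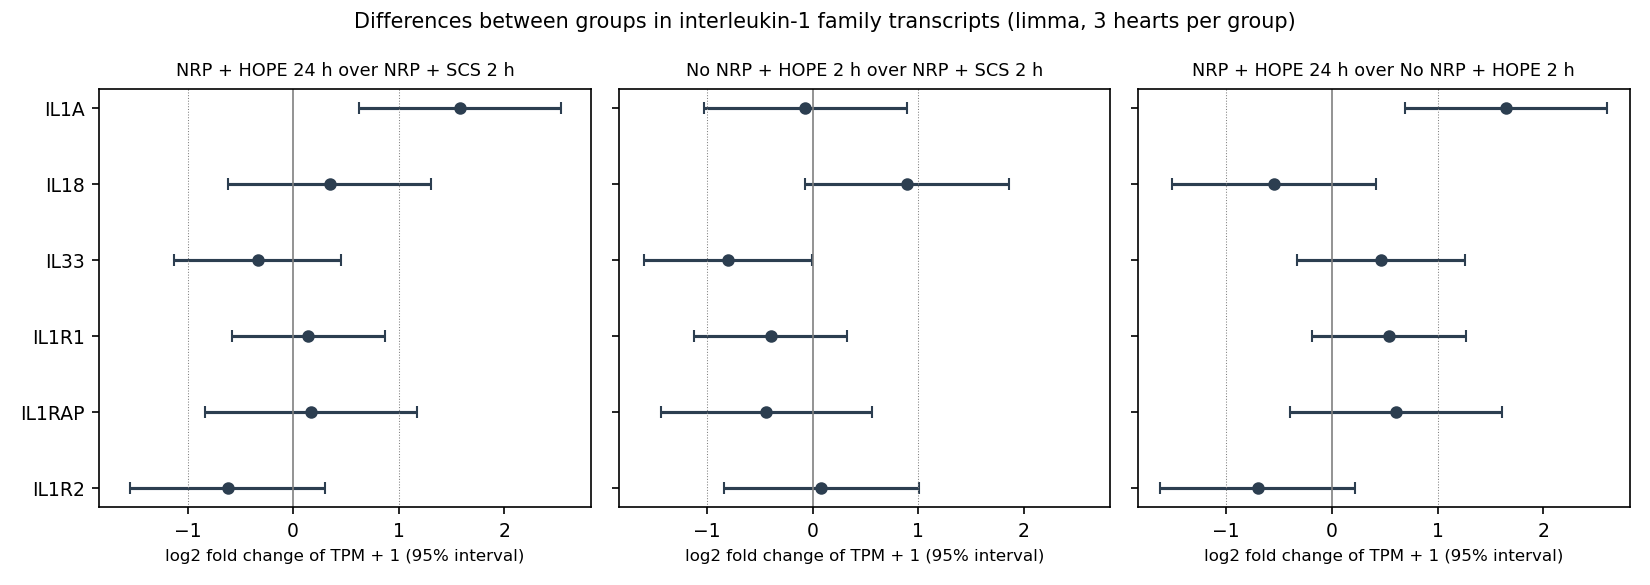
Differences in mean log2(TPM + 1) for the 6 tested members in the 3 comparisons, with points for the limma estimates, bars for 95% intervals and dotted lines at -1 and 1. The intervals of IL1A lie above 0 in both comparisons of the 24 h HOPE hearts (0.62 to 2.54 and 0.69 to 2.61), and the interval of IL33 in the no-NRP hearts ends at -0.01.

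Counted over the 6 tested members, 0 passed an adjusted p of 0.05 with a log2 difference above 1 in any comparison. The same rule called 0.0255% of all tested genes between 24 h HOPE and 2 h SCS, 0.0509% between no NRP and 2 h SCS and 0.0509% between 24 h HOPE and no NRP. At an unadjusted p of 0.05 with the same fold, 1 member (IL1A) was higher after 24 h HOPE than after SCS, against a background of 2.23% of all genes, and 1 member (IL1A) was higher than without NRP, against 3.3%. In the comparison of no NRP with SCS 0 members met this rule, against 3.46%. Hearts of both groups did not overlap for 1 member (IL1A, background 9.82%) between 24 h HOPE and SCS, for 2 members (IL18 and IL33, background 14.7%) between no NRP and SCS and for 1 member (IL1A, background 7.48%) between 24 h HOPE and no NRP. The median log2 difference of the members was 0.16, -0.23 and 0.50 in this order, beside medians of -0.12, -0.07 and -0.03 over all tested genes. These medians of 6 genes depend on single hearts, since IL1R1, IL1RAP and IL33 each changed sign between 24 h HOPE and SCS when 1 heart was left out. Their values with 1 heart left out are not given here.

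Since ligand, receptor and decoy act on each other, their TPM were also set against each other within a heart, in 6 ratios among 5 members that were chosen after the values were seen. IL1A over IL1R2 was 6.35, 6.80 and 9.43 in the 24 h HOPE hearts, against 0.529, 1.01 and 1.47 after SCS and 0.536, 0.867 and 1.06 without NRP. The decoy transcript was thus the lower one in every 24 h HOPE heart, and both were at comparable levels in the remaining hearts. The geometric mean of the ratio was 8.02 times that of the SCS hearts and 9.39 times that of the no-NRP hearts, with an exact two-sided permutation p = 0.1 each. With 1 TPM added to both genes, the log2 difference of the ratio was 2.20 and 2.35 in place of 3.00 and 3.23, since both genes are low.

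IL1R1 exceeded IL1R2 in every heart. Its ratio to the decoy was 81.6, 59.1 and 104 after 24 h HOPE, 35.9, 23.0 and 53.5 after SCS and 26.1, 16.6 and 40.1 without NRP. The 24 h HOPE hearts did not overlap with either other group, and the ratio was 2.24 times and 3.07 times theirs (exact permutation p = 0.1 each), or 1.17 and 1.62 on the log2 scale, which became 0.76 and 1.24 with 1 TPM added to both genes. IL1A over IL18, the ratio of both ligands, was 8.93, 6.08 and 5.19 after 24 h HOPE, 4.73, 3.23 and 1.31 after SCS and 0.856, 0.827 and 0.688 without NRP. These 3 groups did not overlap in any pair, with IL1A the lower of both ligands only in the no-NRP hearts. With 1 TPM added, its log2 difference between no NRP and SCS was -0.96 in place of -1.79, and that between 24 h HOPE and SCS, 1.27, was 0.75 without pig 29. IL1R1 over its partner IL1RAP ran from 6.58 to 55.6 and overlapped between the groups. IL1A over IL33 after 24 h HOPE was 5.33 times that after SCS and 2.97 times that without NRP. For IL1R1 over IL1A these values were 0.28 and 0.33, and the 24 h HOPE hearts overlapped with neither group in either ratio. Every ratio with IL1A separated these hearts, so these ratios are not independent of the IL1A difference itself.

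**Figure D3:**
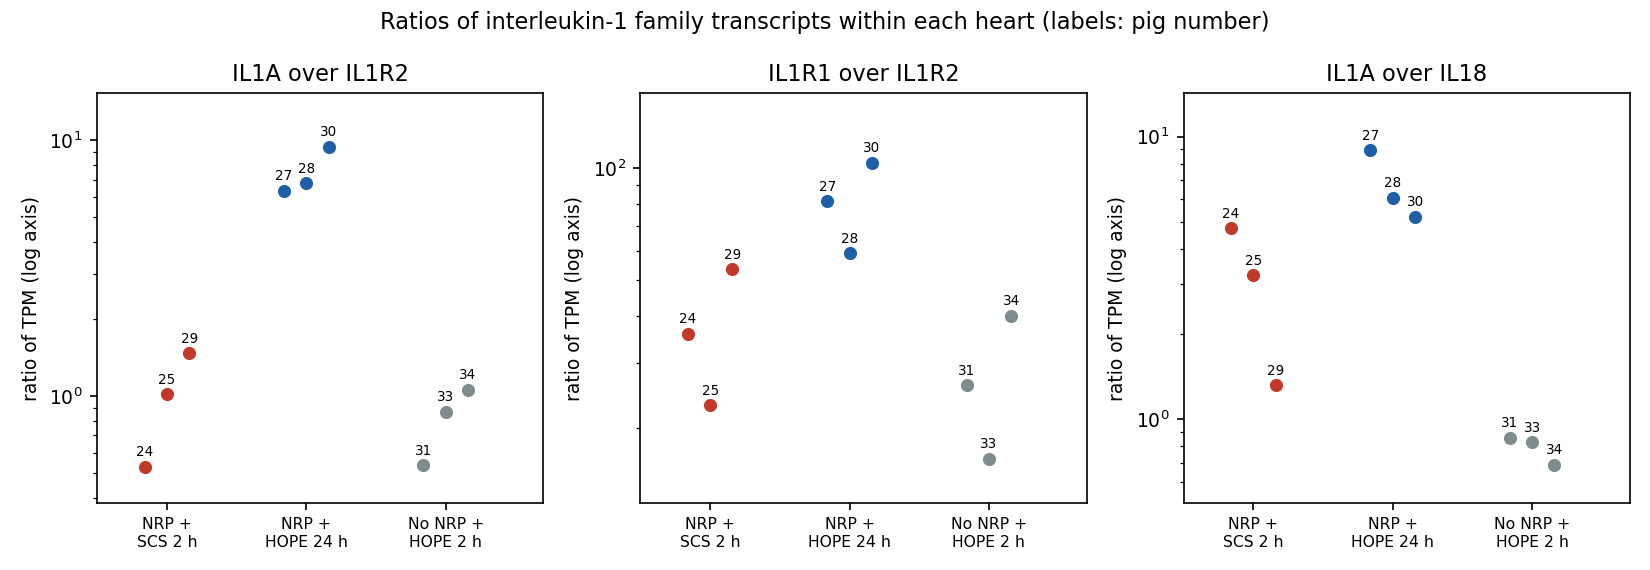
Ratio of TPM between members within each heart on a log axis, with a point per heart and 3 hearts per group. IL1A over IL1R2 is at 6.35 to 9.43 in the 24 h HOPE hearts and at 0.529 to 1.47 in the others, and IL1A over IL18 falls into 3 ranges that do not overlap.

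Across the 9 hearts, IL1R1 and IL33 were the pair of members with the closest profile (r = 0.828, rho = 0.833), followed by IL1A and IL1R1 (r = 0.670, rho = 0.650). Among all tested genes with a symbol, those most like IL1A in log2(TPM + 1) were ADORA2A (r = 0.965), an adenosine receptor, IER3 (r = 0.957), an early response gene, and HBEGF (r = 0.951), a growth factor of the EGF family. The genes most like IL1R1 were SCO1, IPO5 and NOB1 (r = 0.952 to 0.956), those most like IL1RAP were SEC24A, NUFIP2 and KMT2A (0.966 to 0.972), and those most like IL33 were TCP1, ETF1 and EIF4A1 (0.975 to 0.980). For IL1R2 the highest were SFRP5, BST1 and FXYD2 (0.886 to 0.919), and for IL18 SLBP, ELN and GLMN (0.920 to 0.933), of which SLBP and GLMN had a rank correlation of only 0.717 and 0.700. These are descriptions over 9 points that share group, library and composition effects, and the genes were the highest of all that were searched.

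Of 14 further ligands, receptors and binding proteins of the family, 5 were listed and 1 was tested. This was SIGIRR, an orphan receptor of the family that damps IL-1 and Toll-like receptor signaling. SIGIRR was at 14.0, 14.0 and 26.9 TPM after 24 h HOPE (18.3 ± 7.45), at 47.7, 35.9 and 43.6 TPM after SCS (42.4 ± 6.0) and at 27.5, 46.8 and 23.1 TPM without NRP (32.5 ± 12.6). All 24 h HOPE hearts were below all SCS hearts, whereas pig 30 overlapped with the no-NRP hearts. The difference between 24 h HOPE and SCS was -1.23 ± 0.34 (adjusted p = 0.477), that between no NRP and SCS was -0.43 (adjusted p = 0.864) and that between 24 h HOPE and no NRP was -0.80 (adjusted p = 0.804). With 1 heart left out the second was -0.72 (without pig 33) to -0.22 (without pig 34) and the third was -1.10 to -0.51 (without pig 33), and with array weights they were -0.077 and -1.31. IL1RL2, the IL-36 receptor, was listed at 0 in 9 hearts, and IL18RAP, the second chain of the IL-18 receptor, was listed at 0 in 5.

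Of 17 genes for the processing and release of the cytokines, 12 were listed and 8 were tested, and 0 passed the adjusted threshold in any comparison. After 24 h HOPE 1 was higher and 7 were lower than after SCS by their fitted values, with a median of -0.15 beside -0.12 for all genes, of which 64.1% were lower. Against the no-NRP hearts the counts were again 1 and 7, with a median of -0.20 beside -0.03 and 53.9% of all genes lower, and between no NRP and SCS they were 3 and 5, with a median of -0.07 beside -0.07. The gene with the largest difference in all 3 comparisons was CASP1, the protease that cleaves pro-IL-18 and pro-IL-1 beta. CASP1 was at 0.251, 0.245 and 0.467 TPM after 24 h HOPE (0.321 ± 0.126), at 1.67, 0.934 and 1.58 TPM after SCS (1.39 ± 0.399) and at 1.90, 3.25 and 10.8 TPM without NRP (5.32 ± 4.80). The 3 groups did not overlap in any pair. CASP1 differed by -0.85 (24 h HOPE against SCS, adjusted p = 0.993), 1.15 (no NRP against SCS, adjusted p = 0.600) and -2.0 (24 h HOPE against no NRP, adjusted p = 0.248), and without pig 34 the last 2 were 0.57 and -1.41. GSDMD, the pore-forming protein through which mature cytokine leaves the cell, differed by -0.58, -0.16 and -0.42 (adjusted p = 0.993, adjusted p = 0.970 and adjusted p = 0.956), of which the first was -0.26 without pig 24 and -0.93 without pig 30 and the third was -0.21 without pig 27 and -0.77 without pig 30. The negative sign of the second rested on pig 24, with GSDMD at 167 (pig 24), 79.9 and 92.4 TPM after SCS and at 69.9, 118 and 107 TPM without NRP. NLRP3, the inflammasome sensor upstream of caspase-1, was low at 0.146 to 2.08 TPM, overlapped between groups and differed by 0.46 between 24 h HOPE and no NRP (adjusted p = 0.956), a value that ran from 0.20 (without pig 31) to 0.70 (without pig 33) and was 0.091 with array weights and 1.04 with a pseudocount of 0.1. CASP8, which can cleave the same precursors, differed by -0.23 between 24 h HOPE and SCS (adjusted p = 0.993; -0.53 without pig 30 and -0.050 without pig 27), and CTSS, a lysosomal protease of macrophages, by 0.39 between no NRP and SCS (adjusted p = 0.921), with the highest value of 244 TPM in pig 34.

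Of 22 genes of receptor signaling, 18 were listed and tested, and 0 passed the adjusted threshold. The counts of higher and lower genes were 7 and 11 between 24 h HOPE and SCS, 7 and 11 between no NRP and SCS, and 8 and 10 between 24 h HOPE and no NRP, and the medians of -0.08, -0.08 and -0.07 were near those of all genes. IRAK2, a kinase of the receptor complex, was at 60.1, 74.3 and 62.9 TPM after 24 h HOPE and at 52.8, 36.9 and 27.6 TPM after SCS, with no overlap and a difference of 0.78 (adjusted p = 0.943). Without NRP it was at 45.2, 77.9 and 54.8 TPM, which overlapped with both groups. IRAK4, the kinase that is recruited first, differed between 24 h HOPE and SCS by -0.59 (adjusted p = 0.993), which was -0.36 without pig 27. NFKB1, an NF-kB subunit, was at 10.6, 15.4 and 25.4 TPM after 24 h HOPE against 4.40, 9.49 and 3.68 TPM without NRP, a difference of 1.41 (adjusted p = 0.389), while the SCS hearts, at 11.1, 7.48 and 11.2 TPM, overlapped with both. MAP2K6, a kinase upstream of p38, was at 1.66, 1.71 and 6.49 TPM without NRP and at 0.182 to 1.19 TPM in the NRP hearts, a difference of 1.30 from SCS (adjusted p = 0.505) that was 0.81 without pig 34.

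**Figure D4:**
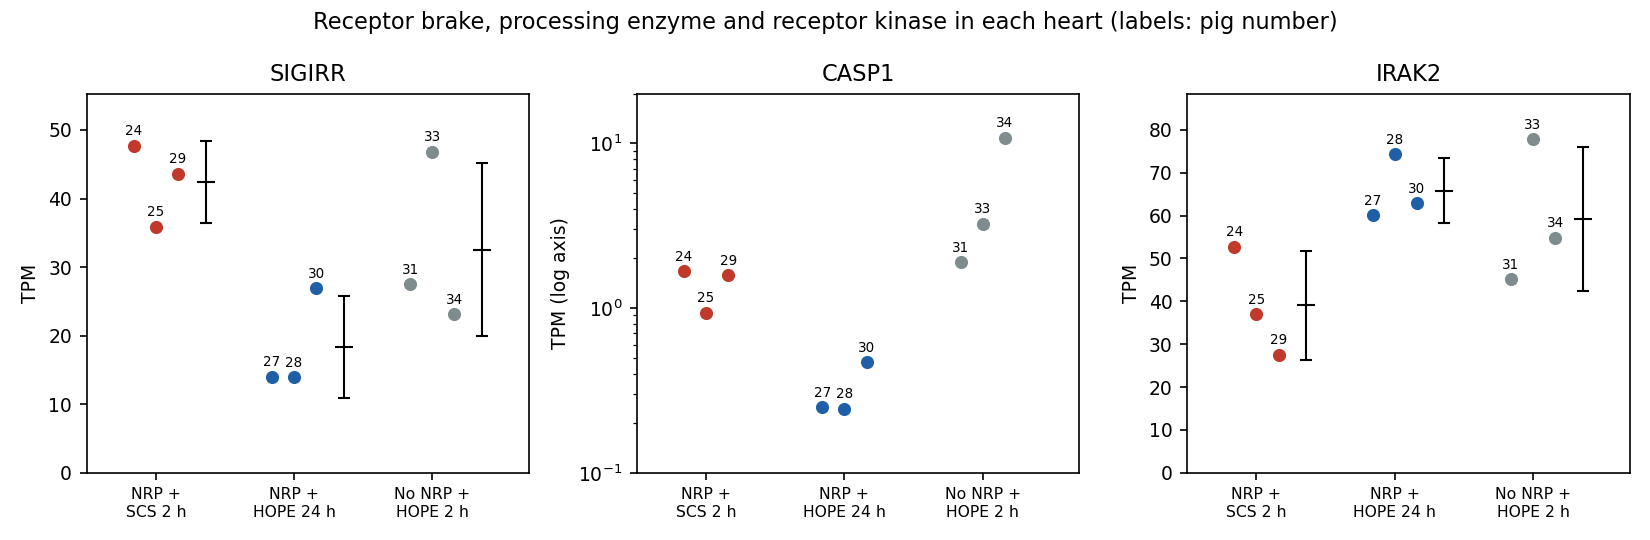
TPM of the dampening receptor SIGIRR, the protease CASP1 (log axis) and the receptor kinase IRAK2 in each heart, with points for hearts and, where drawn, group means and SD (n = 3). SIGIRR and CASP1 are lower in the 24 h HOPE hearts than in the SCS hearts, at 14.0 to 26.9 against 35.9 to 47.7 TPM and 0.245 to 0.467 against 0.934 to 1.67 TPM, and neither difference passed the adjusted test.

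Genes that IL-1 induces in many cell types were mostly higher in the 24 h HOPE hearts by their fitted values, and most of them also respond to tumor necrosis factor and Toll-like receptors. Of 23, 16 were listed and 12 tested, 0 passed the adjusted threshold in any comparison, and 11 were higher and 1 lower in the 24 h HOPE hearts than in the SCS hearts, with a median of 0.81 beside -0.12 for all genes, of which 35.9% were higher. This median was 0.49 without pig 29 and 0.54 without pig 28. Against the no-NRP hearts, 11 were higher and 1 lower after 24 h HOPE, with a median of 1.11 beside -0.03 and 46.1% of all genes higher. Between the no-NRP and SCS hearts, 5 were higher and 7 lower, with a median of -0.11 beside -0.07. The list was chosen with earlier results of these data known, so its counts beside the background are descriptions and not a test. At an unadjusted p of 0.05 with the fold above, 4 were higher in the first comparison (background 2.23% of all genes) and 6 in the second (3.3%), and 1 (CSF3) was lower in the third (3.46%). The 24 h HOPE hearts did not overlap with the SCS hearts for 6 of the 12 (background 9.82%) and with the no-NRP hearts for 6 (7.48%), and the no-NRP and SCS hearts did not overlap for 0 (14.7%). TNF, the gene of tumor necrosis factor, was the 1 lower gene in both comparisons of the 24 h HOPE hearts. It was among the 6 against no NRP, at 1.54, 1.61 and 0.766 TPM against 1.63, 2.5 and 1.64 TPM (-0.35, adjusted p = 0.971).

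CXCL2, a neutrophil chemokine, was at 804, 1468 and 202 TPM after 24 h HOPE, against 185, 137 and 50.1 TPM after SCS and 111, 144 and 56.1 TPM without NRP. Pig 30, the lowest 24 h HOPE heart, was only just above the highest SCS heart. The log2 difference was 2.5 from SCS (adjusted p = 0.358) and 2.67 from no NRP (adjusted p = 0.270). CXCL8, the chemokine IL-8, was at 10.8, 74.2 and 22.8 TPM after 24 h HOPE and at 3.08, 6.67 and 2.90 TPM after SCS, a difference of 2.48 (adjusted p = 0.344). The no-NRP hearts, at 4.47, 19.6 and 5.90 TPM, overlapped with both. PTGS2, the inducible cyclooxygenase, was at 30.4, 124 and 32.6 TPM after 24 h HOPE and at 9.19, 14.5 and 10.9 TPM after SCS, a difference of 2.04 (adjusted p = 0.669), with 37.5 TPM in pig 33 as the highest of the no-NRP hearts.

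TNFAIP3, an NF-kB target that feeds back on the same pathway, was at 28.7, 57.0 and 42.9 TPM after 24 h HOPE and at 4.94 to 15.6 TPM in all other hearts. It differed by 1.79 from SCS (adjusted p = 0.199) and by 2.04 from no NRP (adjusted p = 0.140). CSF3, the neutrophil growth factor G-CSF, was at 18.3, 3.48 and 0.728 TPM after SCS, at 4.29, 31.5 and 4.85 TPM after 24 h HOPE and at 0, 0.817 and 0 TPM without NRP. The fitted difference of CSF3 between no NRP and SCS was -2.12 (adjusted p = 0.580) and -1.19 without pig 24. The difference of CSF3 between 24 h HOPE and no NRP was 3.04 (adjusted p = 0.319). VCAM1, an endothelial adhesion molecule, differed by -0.95 between no NRP and SCS (adjusted p = 0.622), which was -0.49 without pig 31 and -1.43 without pig 34. Between 24 h HOPE and no NRP it differed by 1.32 (adjusted p = 0.420). The no-NRP hearts were at 32.9 (pig 31), 62.1 and 123 TPM, so that this difference also leaned on pig 31. IL6 was listed at 0 in 4 hearts, reached 0.985 TPM at most and was not tested.

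**Figure D5:**
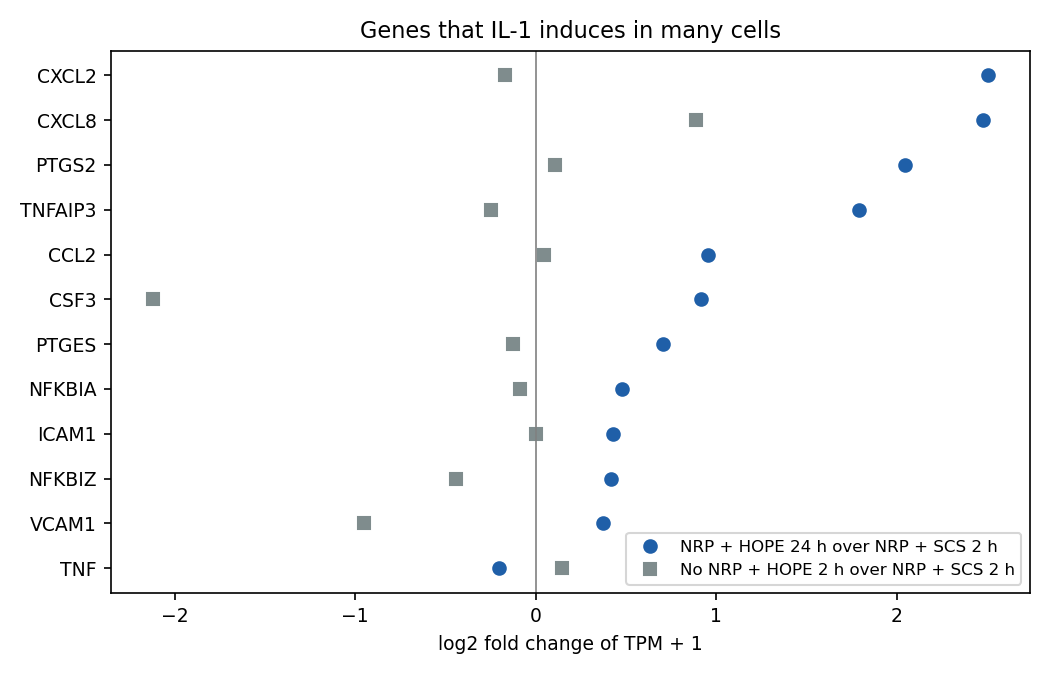
Differences in mean log2(TPM + 1) for the 12 tested genes that IL-1 induces in many cells, for 24 h HOPE against 2 h SCS and no NRP + HOPE 2 h against 2 h SCS, each from 3 hearts against 3. In the 24 h HOPE comparison 11 of 12 points are above 0, and in the no-NRP comparison 5 of 12 are.

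Neutrophils are a common source of IL1R2. The summed neutrophil markers (5 of 7 listed, CSF3R and MPO at 0 in every heart) were at 3.05 to 13.9 TPM after SCS, 0.829 to 4.03 TPM after 24 h HOPE and 0.273 to 0.447 TPM without NRP. S100A9, the only marker of the list that was tested, differed by -1.35 between 24 h HOPE and SCS (adjusted p = 0.792) and by -2.17 between no NRP and SCS (adjusted p = 0.140). In the same order of groups, IL1R2 was at 1.34 to 3.17, 0.732 to 1.91 and 0.998 to 5.34 TPM, with overlap between all groups. Macrophages can make IL1A, CASP1 and IL18, and the summed macrophage markers were at 75.1 to 186 TPM after SCS, 62.5 to 142 TPM after 24 h HOPE and 106 to 217 TPM without NRP, with overlap between all groups. C1QA, at 31.5 to 180 TPM, was the largest part of this sum in most hearts. Between no NRP and SCS, 2 of the 5 tested macrophage markers were higher and 3 lower, with a median of -0.31 beside -0.07 for all genes. The summed erythroid markers (2 of 4 listed) were at 71.4 to 133 TPM after SCS, 73.9 to 425 TPM after 24 h HOPE and 222 to 372 TPM without NRP. The summed smooth muscle and pericyte markers (3 of 4 listed, MYH11 at 0 in every heart) were at 240 to 355 TPM after SCS, 177 to 295 TPM after 24 h HOPE and 337 to 403 TPM without NRP. The 24 h HOPE and no-NRP hearts, which also did not overlap for IL1A and CASP1, did not overlap in this sum. TAGLN, which made up most of it, overlapped between these groups, at 161 to 253 against 249 to 330 TPM (-0.49, adjusted p = 0.862). ACTA2, smooth muscle actin, differed by -1.28 between these groups (adjusted p = 0.402). It was at 15.8 (pig 27), 41.6 and 45.7 TPM after 24 h HOPE and at 72.0, 72.9 and 88.1 TPM without NRP, so that this difference leaned on pig 27. The part of these cells in the differences of the members was not tested.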

How the data were processed

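Biopsies of 9 hearts (3 per group) were sequenced by the authors from poly(A) RNA. Per the labels and the study's methods, reads were trimmed with Trimmomatic 0.36, aligned with STAR 2.5.2b to the Ensembl pig genome (build not given in the sources used here) and counted over exons from uniquely placed reads with featureCounts of Subread 1.5.2. The deposited values are TPM, summing to 1000000 per heart. How the authors set gene lengths is not given in the sources used here, and the read depth is unknown. The table also holds 9 columns that no label ties to a sample, which were not used.

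Rows were matched by the gene name in the table. Genes that reached 1 TPM in 3 or more of the 9 hearts were tested with limma 3.58.1 in R 4.3.3 on log2(TPM + 1), with 1 mean per group over all 9 hearts, a trended prior, two-sided tests and Benjamini-Hochberg adjustment over 11782 genes. A call needed an adjusted p under 0.05 and a log2 difference above 1. The study's design for counts (DESeq2) could not be used on TPM. The fitting code was tested on simulated data. Single values and ratios were compared by exact permutation. Each heart came from its own pig. Named genes were all members, the 3 tested genes of each pathway list with the largest difference in each comparison, and the 3 genes most correlated with each member. IL1B2, IL6, TNF, IL1RL2, IL18RAP and the cell markers S100A9, CSF3R, MPO, C1QA, ACTA2, TAGLN and MYH11 fall outside this rule. They were chosen after their values were seen. Members, pathway lists and marker lists were chosen with earlier results of these data known, and the ratios after the values were seen. Between the table's names and a second name table, 10635 of 11050 identifiers named in both had the same name. Sequences and genome positions are not given here.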

Additional observations from a re-analysis of the deposited data

How the results depend on the processing

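The 6 tested members gave 0 adjusted calls under every alternative in all 3 comparisons. IL1A kept its direction in both comparisons of the 24 h HOPE hearts, at 1.29 to 1.94 against SCS and 1.36 to 2.11 against no NRP with 1 heart left out, with an adjusted p between 0.103 and 1.0 and between 0.152 and 0.997 over all alternatives that tested it. Of 273 alternative values of the members, 9 had the other sign. These were IL1A between no NRP and SCS with array weights (0.36), and, with 1 heart left out, IL1A (range -0.53 to 0.20) and IL1R2 (-0.35 to 0.49) in that comparison and IL1R1 (-0.029 to 0.42), IL1RAP (-0.14 to 0.57) and IL33 (-0.54 to 0.012) between 24 h HOPE and SCS. The median of the IL-1-induced genes between 24 h HOPE and SCS was 0.49 to 1.04 with 1 heart left out and 0.59 without the filter. In the no NRP against SCS comparison, the median of the IL-1-induced genes was 0.090 with array weights and -0.46 to 0.10 with 1 heart left out, and IL1A over IL1R2 was -0.63 to 0.11. CTSS was -0.16 to 0.99 there with 1 heart left out (lowest without pig 34). Median-of-ratios scaling moved the median of all genes by 0.12 between 24 h HOPE and SCS, and 0 of 36 member values changed sign under it or without the mitochondrially encoded genes. Members at an unadjusted p fell from 1 to 0 in both 24 h HOPE comparisons with a mean of at least 5 TPM, where IL1A was not tested. Against SCS, no NRP had 0, 1 with array weights and 0 to 1 with 1 heart left out, and 24 h HOPE against no NRP had 1 to 3 (3 without pig 34). Adjusted calls over all genes between 24 h HOPE and SCS were 3, and 0 with a pseudocount of 0.1, 1 without the filter, 6 with a mean of at least 5 TPM, 17 with only the 6 hearts compared, 60 with array weights and 0 to 9 with 1 heart left out. Between no NRP and SCS they were 6, and 1 without the filter, 19 with median-of-ratios scaling, 20 without mitochondrially encoded genes, 94 with array weights and 1 to 13 with 1 heart left out. Between 24 h HOPE and no NRP they were 6, and 3 with a pseudocount of 0.1, 3 with median-of-ratios scaling, 2 without mitochondrially encoded genes, 14 with array weights and 0 to 16 with 1 heart left out. CXCL2 and CXCL8 passed the adjusted threshold against SCS with array weights (adjusted p = 0.0289 and adjusted p = 0.0431). Other settings moved more differences by over 1.5 times. With a pseudocount of 0.1, the values were -0.96 for IL1R2 and -1.83 for CASP1 between 24 h HOPE and SCS, -0.16 for IL1A, 1.47 for IL18, 2.29 for MAP2K6 and -4.18 for CSF3 between no NRP and SCS, and -3.35 for CASP1 and 5.40 for CSF3 between 24 h HOPE and no NRP. With array weights they were 0.31 for IL1R1 and -0.47 for CASP8 between 24 h HOPE and SCS, -0.097 for IL1R1, 0.46 for IL1R2, 1.4 for IL18 and -0.48 for IL33 between no NRP and SCS, and -0.80 for GSDMD and 0.94 for NFKB1 between 24 h HOPE and no NRP. With median-of-ratios scaling they were 0.29 for IL1R1, 0.27 for IL1RAP and -0.11 for CASP8 between 24 h HOPE and SCS, and -0.0017 for IL1A and 0.17 for IL1R2 between no NRP and SCS, where IL1A was -0.12 without the mitochondrially encoded genes. The median of the IL-1-induced genes in that comparison was -0.013 with this scaling and -0.044 without the filter. The cause of these changes was not tested. The pathway-list medians, single pathway genes and ratios were added to the alternatives after seeing the data. No paired analysis was possible because the groups share no pig numbers. TPM give no depth, so counting error at the low levels of IL18, IL1R2, CASP1 and IL1RL1 is unknown.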
